A study of Mus musculus with 24 samples.

Results

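The annexins are a gene family of proteins, most of which bind membranes when calcium rises, and 10 genes of the family are described here as one set. The members are *Anxa1*, *Anxa2*, *Anxa3*, *Anxa4*, *Anxa5*, *Anxa6*, *Anxa7*, *Anxa8*, *Anxa10* and *Anxa11*, found by their gene name in the array annotation. They are 10 of the 27398 gene names on the array and are measured by 17 of its 41174 probes, whose values are given or summarised below. The family was chosen by the array values of *Anxa10*, whose large rise in wildtype mice 5 days after nerve lesion was already known. The wildtype values after the lesion are therefore given as a description with no test, and tests are kept to *Nfil3* knockout (KO) mice and to the comparison of genotypes.

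The 24 samples are L4 and L5 dorsal root ganglia (DRGs) of adult male C57BL/6J mice, wildtype (WT) or *Nfil3* KO. DRGs were taken at day 2 or day 5 after the sciatic nerve had been cut and its ends rejoined, and control DRGs came from the side without injury. This gives 6 groups, WT control, WT day 2, WT day 5, KO control, KO day 2 and KO day 5, with 4 samples each, 2 labelled with Cy3 and 2 with Cy5. The KO is a deletion in the whole animal, made with a Cre driven by the CMV promoter and not aimed at 1 cell type of the DRG. NFIL3 is a transcriptional repressor whose place in the response to nerve lesion was the question of the study. Replicates are called independent in the study's methods, but the labels do not tie samples to animals, so that p-values measure the spread between these samples. Each array carried 2 samples, 1 per dye, and each sample's intensity was read by itself and put on a log2 scale.

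The labels name the tissue as DRG neurons, but whole DRGs were dissected. Signal well above background was found in 1 sample or more for all 8 sensory neuron markers, and likewise for all 6 satellite glia, 6 myelinating Schwann cell, 11 macrophage and 5 fibroblast markers. The same held for the 5 measured markers each of neutrophils, T cells, endothelium and skeletal muscle. Detection of this kind therefore does not tell which cell types the samples held. Between 54.5% and 72.3% of the probes in a sample were well above background, and no spot was saturated. The brightest *Nfil3* probe read 8.52 to 11.16 in the WT samples and was not well above background in 7 of 12 KO samples. In the other KO samples it read 5.345 to 7.66, and the cause was not tested. The library labelled KO control replicate 4 has conflicting labels, since 1 field gives day 5, and it read highest for *Nfil3* among the KO samples at 7.66. It was kept as a control by its title, and the comparisons with KO control and the counts of called genes are also given without it.

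Annexins share a core of repeats that in most members hold calcium and dock onto acidic phospholipids, and they differ in the short N-terminal part that binds partners. ANXA1 is known as a glucocorticoid-induced protein that acts on formyl peptide receptors of leukocytes and dampens inflammation. ANXA2 pairs with S100A10 and serves as a surface site for plasminogen activation, ANXA5 is the protein used to stain dying cells, and ANXA6 has a doubled core. ANXA10 is best known from stomach epithelium, and ANXA11 is an RNA granule protein that has been tied to transport of RNA along axons.

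Windows of 250 bases just before the start of transcription are shown, for *Anxa10* and *Anxa1*, the members that rose after the lesion, and for *Anxa2*, the other member with a match to the motif marked in capitals. They are RefSeq sequences of GRCm38.p6, given 5′ to 3′ on the strand of the gene, and lie at chr8:62123194-62123443 on the minus strand, chr19:20390672-20390921 on the minus strand and chr9:69453433-69453682 on the plus strand. Capitals mark the AP-1 word.
*Anxa10*: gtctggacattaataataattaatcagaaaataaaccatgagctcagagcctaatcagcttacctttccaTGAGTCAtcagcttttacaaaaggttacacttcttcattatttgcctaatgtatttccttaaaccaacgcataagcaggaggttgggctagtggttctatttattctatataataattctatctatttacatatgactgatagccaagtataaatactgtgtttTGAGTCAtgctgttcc
*Anxa1*: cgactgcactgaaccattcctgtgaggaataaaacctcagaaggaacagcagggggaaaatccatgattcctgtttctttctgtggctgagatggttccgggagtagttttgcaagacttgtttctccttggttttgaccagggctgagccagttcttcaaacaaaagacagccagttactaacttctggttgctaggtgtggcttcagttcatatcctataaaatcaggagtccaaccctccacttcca
*Anxa2*: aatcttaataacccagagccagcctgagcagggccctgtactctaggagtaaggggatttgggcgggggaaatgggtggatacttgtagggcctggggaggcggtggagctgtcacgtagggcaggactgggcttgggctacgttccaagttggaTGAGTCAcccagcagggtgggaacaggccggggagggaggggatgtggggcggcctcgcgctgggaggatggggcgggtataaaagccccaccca
Windows were at hand for 8 of the 10 genes (not for *Anxa3* and *Anxa6*), 10 windows in all, and the search ran over 250 bases before to 50 bases after the start on both strands. The AP-1 word is TGACTCA, or TGAGTCA when read on the other strand, and it was chosen with these sequences already seen. *Anxa10* held it in 2 places, with first bases 180 and 16 bases before the start, and *Anxa2* held it once, 95 bases before the start. Of all 32851 promoter windows of this length, 5.2% held the word at least once and 0.222% held it 2 or more times. The CRE word TGACGTCA, found in 1.79% of all windows, and the NFIL3 words TTACATAA, TTACGTAA and TTATGTAA, found in 1.06%, were in 0 of the 10 annexin windows. None of these words contains another, and a match or its absence describes these letters and says nothing of binding.

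The probes are 60 bases long and tell the family members apart, since the longest run of bases shared by probes of different members was 9. The *Anxa1* probe and the brighter *Anxa2* probe are shown as the array gives them.
*Anxa1* probe A_51_P283590: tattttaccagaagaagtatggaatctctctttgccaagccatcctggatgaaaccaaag
*Anxa2* probe A_52_P62037: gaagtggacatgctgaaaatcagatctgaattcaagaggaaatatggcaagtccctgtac
In the array annotation (mm9) the *Anxa1* probe spans chr19:20448248-20449761, 1514 bases of the genome, so that it crosses at least 1 intron. The *Anxa2* probe lies at chr9:69337510-69337569 and the *Anxa10* probe, A_51_P216679, at chr8:64536504-64536563. Exon annotation of that build was not used here.

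*Anxa10* showed the largest change of the family. None of the 8 control DRG samples gave a signal well above background for its probe, with values of 3.51, 3.97, 4.42 and 4.08 in WT and 3.17, 3.40, 2.87 and 2.54 in KO. At day 2 it read 7.62, 7.89, 7.20 and 7.62 in WT and 7.77, 7.33, 6.85 and 7.89 in KO. At day 5 it read 9.51, 9.75, 9.64 and 9.52 in WT and 9.72, 9.56, 9.76 and 9.94 in KO. All lesion samples lay above all controls, all day 5 samples lay above all day 2 samples, and WT and KO overlapped at both days after the lesion.

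In KO mice *Anxa10* rose by 4.47 on the log2 scale at day 2 (95% CI 4.0 to 4.93, limma adjusted p = 3.41e-11) and by 6.75 at day 5 (6.29 to 7.22, adjusted p = 4.98e-14). Because the controls were not well above background, these are bounds, at least 17.95-fold at day 2 and at least 87.5-fold at day 5, against the higher of the probe's own signal and the lowest signal well above background in each control. Between day 2 and day 5 it rose further by 2.29 (1.82 to 2.75, adjusted p = 2.29e-05), or 4.88-fold, with the probe well above background in all samples of both groups. The measured WT differences were 3.59 at day 2, 5.61 at day 5 and 2.02 between them, with bounds of at least 10.74-fold and at least 43.7-fold against control. Both KO lesion comparisons, and likewise both WT ones, share their 4 controls. In bulk samples such as these a change in RNA per cell and a change in the number of cells cannot be told apart.

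The size of the change against control depends on the background correction. With none, the KO differences of *Anxa10* were 1.799 at day 2 and 3.75 at day 5, with normexp 1.48 and 3.33, and with the processed signals of Feature Extraction 5.97 and 8.33, all past the threshold. The bounds hold for the Edwards correction alone, since the differences with no correction and with normexp are smaller than they are. The difference between day 5 and day 2 moved less, from 1.84 to 2.39 over 14 alternative settings. Without the library labelled KO control replicate 4 the differences were 4.31 and 6.599. The 2 KO controls that shared an array with a lesion sample read 3.17 and 2.54 and the 2 others 3.40 and 2.87.

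**Figure D1:**
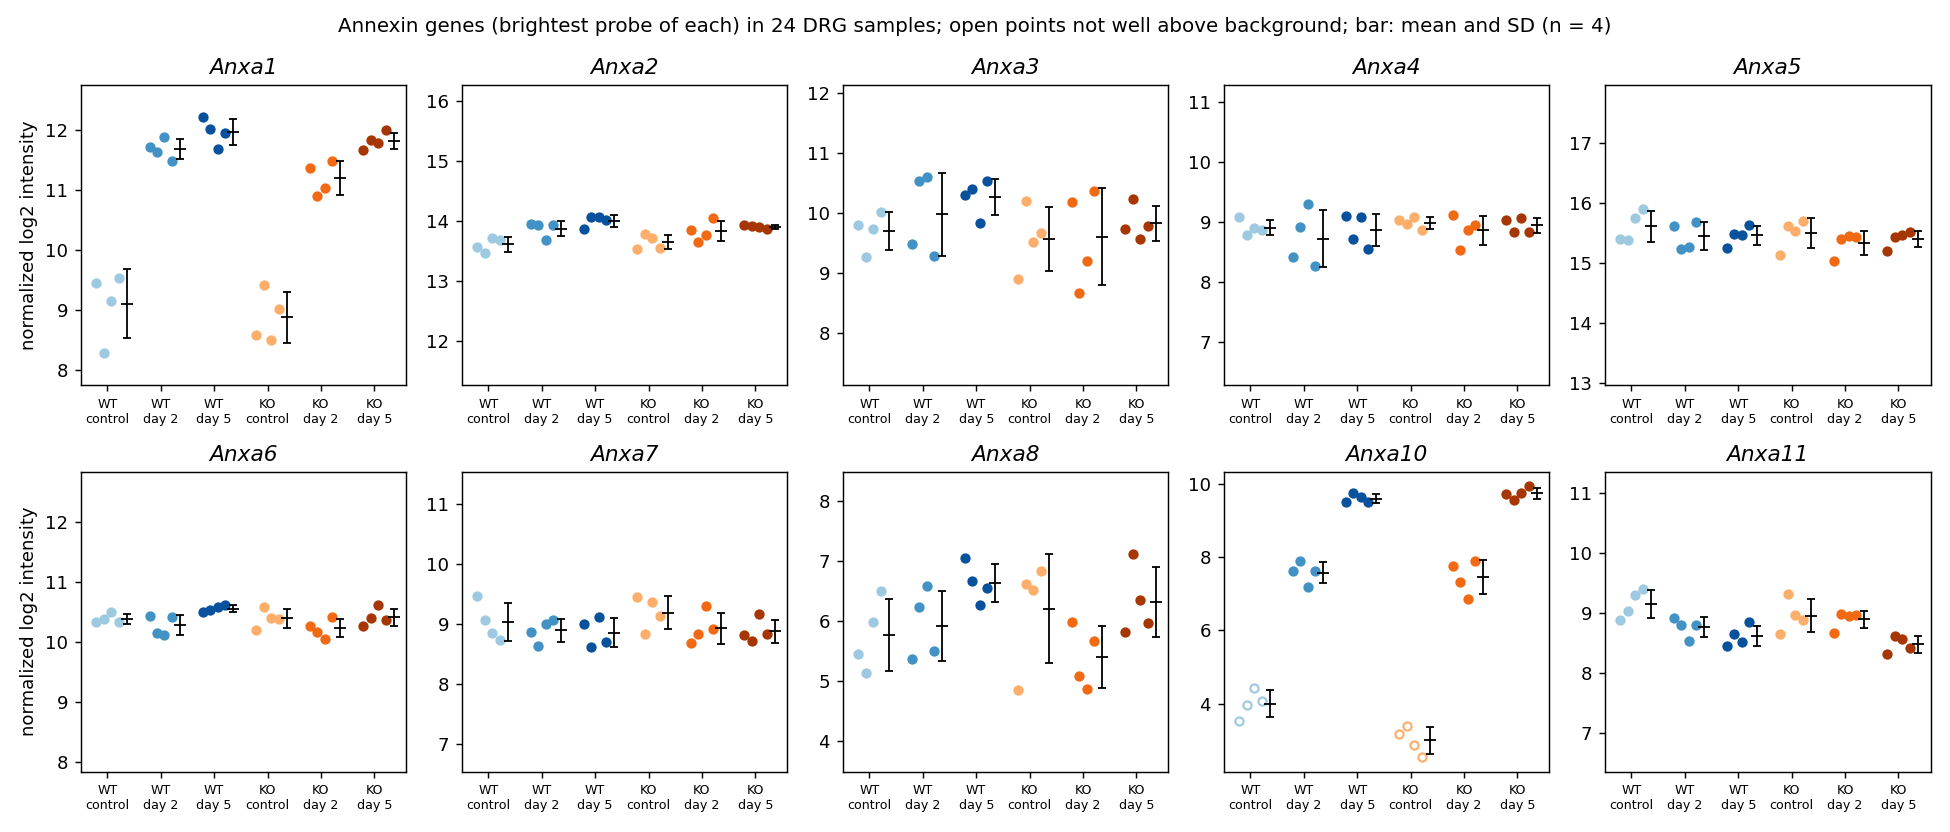
Normalized log2 intensity (y axis, spanning at least 5 units in each panel) of the brightest probe of 10 annexin genes in the 6 groups of 4 samples (x axis), with filled points well above background, open points not, and bars for mean and SD. *Anxa10* climbs from control to day 2 to day 5 in both genotypes with all control points open, *Anxa1* climbs at day 2, and the groups of the other members overlap in most panels.

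The genes whose profile over the 24 samples lay closest to that of *Anxa10*, by the root mean square difference after centring each gene, were *2010005H15Rik* (0.541), *Wfdc3* (0.706), *Nts* (0.715), *Csta* (0.762) and *Gpr151* (0.782). The median over 17575 genes was 2.62, and the next gene in order stood at 0.789. *Nts* encodes the neuropeptide neurotensin, *Csta* an inhibitor of cysteine proteases, *Wfdc3* a protein with a whey acidic protein domain and *Gpr151* an orphan G protein-coupled receptor. In KO mice *Nts* read 9.27, 8.70, 8.87 and 8.58 in control DRGs, 12.70, 12.23, 11.55 and 12.43 at day 2 and 13.59, 13.71, 13.74 and 13.67 at day 5. *Nts* thus showed the same order of groups as *Anxa10*, with no overlap between them. *Gpr151* read 3.63 to 4.26 in KO controls, where it was well above background in 1 of 4, then 8.14 to 8.94 at day 2 and 9.04 to 9.42 at day 5. These genes were picked for their likeness, so their differences carry no test.

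**Figure D2:**
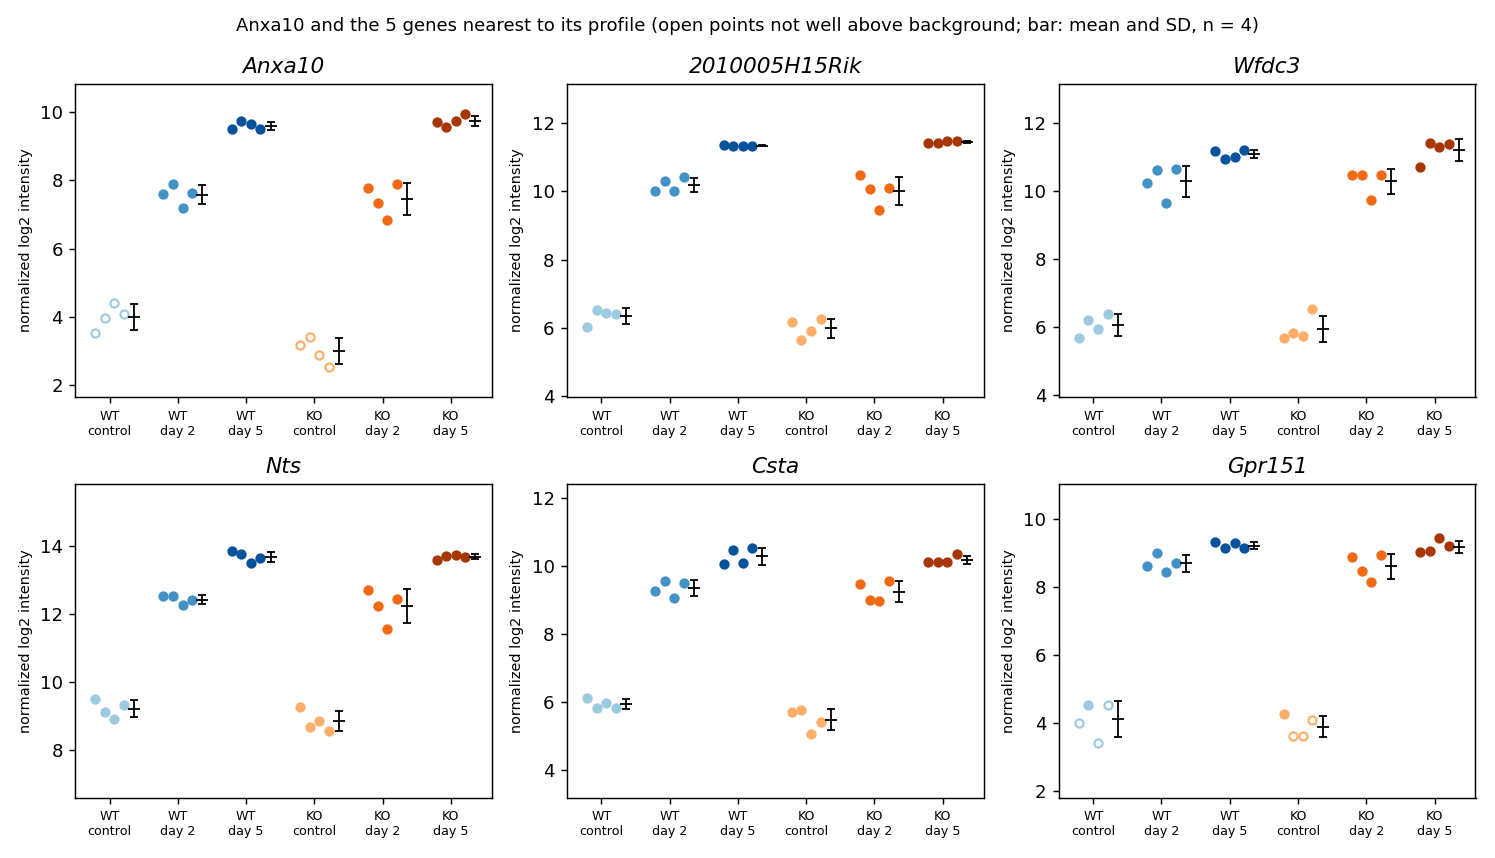
Normalized log2 intensity (y axis, 9.2 units in each panel) of *Anxa10* and the 5 genes nearest to its profile in the 6 groups (x axis), with filled points well above background, open points not, and bars for mean and SD (n = 4). All 6 genes rise from control to day 2 in both genotypes, and *Anxa10* has the widest step from day 2 to day 5.

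*Anxa1* was the second member that rose. Control DRGs read 9.44, 8.28, 9.15 and 9.53 in WT and 8.58, 9.41, 8.49 and 9.02 in KO. At day 2 the values were 11.71, 11.63, 11.88 and 11.47 in WT and 11.37, 10.89, 11.02 and 11.48 in KO, and at day 5 they were 12.21, 12.02, 11.67 and 11.94 in WT and 11.65, 11.83, 11.77 and 11.99 in KO. All 16 lesion samples lay above all 8 controls, by more than 1 unit.

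In KO mice the *Anxa1* difference was 2.32 at day 2 (95% CI 1.83 to 2.80, adjusted p = 8.77e-07), or 4.98-fold, and 2.94 at day 5 (2.45 to 3.42, adjusted p = 2.15e-08), or 7.65-fold. In WT mice it was 2.57 and 2.86. From day 2 to day 5 in KO mice it was 0.62 (0.14 to 1.10), which missed the threshold over all probes (adjusted p = 0.315), although the groups did not overlap, as was so for 3.19% of all genes in this direction. Without the library labelled KO control replicate 4 the KO differences from control were 2.36 and 2.98. From day 2 to day 5 *Anxa10* had risen by 2.29 in the same mice.

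Markers of several cell types moved with the lesion as well. In KO mice 3 of 11 macrophage markers rose at day 2 and 11 of 11 at day 5, and their summed intensity ran from 2413 to 4358 in control, 3550 to 6354 at day 2 and 8934 to 11930 at day 5. The neutrophil markers passed the test in 0 of 5 cases at both days, with sums of 11180 to 33800 in control, 9599 to 87960 at day 2 and 32820 to 88490 at day 5. Each measured marker of both lists was well above background in all 24 samples. Of 8 sensory neuron markers, 2 fell at day 2, and 4 fell and 1 (*Tubb3*) rose at day 5, and their sum went from 683400 to 841300 in KO controls to 504000 to 646600 at day 5. Of 6 satellite glia markers, 2 rose (*Glul* and *Cdh19*) and 2 fell (*Fabp7* and *Gja1*) at day 2, and 1 (*Glul*) rose at day 5. Without the library labelled KO control replicate 4 the counts were the same except for 4 macrophage markers in place of 3 at day 2. The part of these cell types in the rise of *Anxa1* and *Anxa10* was not tested.

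*Anxa11* was lower at day 5. It read 8.88, 9.04, 9.29 and 9.40 in WT controls and 8.65, 9.32, 8.97 and 8.88 in KO controls. At day 2 it read 8.92, 8.80, 8.53 and 8.79 in WT and 8.67, 8.98, 8.95 and 8.96 in KO, and at day 5 it read 8.45, 8.65, 8.51 and 8.84 in WT and 8.31, 8.62, 8.57 and 8.42 in KO. In each genotype all day 5 samples lay below all controls, while day 2 overlapped with control. Of all genes 11.1% in WT and 11% in KO were lower at day 5 without overlap.

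The KO difference of *Anxa11* was -0.48 at day 5 (95% CI -0.78 to -0.18, adjusted p = 0.0324) and -0.07 at day 2 (adjusted p = 0.845), and the WT differences were -0.54 and -0.39. The day 5 call is close to the threshold. It was lost without KO control replicate 2 (-0.36, adjusted p = 0.13), KO control replicate 3 (-0.47, 0.0736), KO day 5 replicate 1 (-0.42, 0.0943) or KO day 5 replicate 4 (-0.46, 0.0824), and it was kept without the library labelled KO control replicate 4 (-0.50, 0.0492).

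*Anxa2* differed little. Its brighter probe read 13.54, 13.79, 13.71 and 13.55 in KO controls and 13.94, 13.91, 13.90 and 13.86 at day 5, with no overlap, as was so for 9.17% of all genes in this direction. The difference was 0.26 (95% CI 0.06 to 0.46, adjusted p = 0.0979), and at day 2 it was 0.18 (-0.02 to 0.38, adjusted p = 0.265). The other *Anxa2* probe gave 0.36 at day 5 (adjusted p = 0.06). In WT mice the brighter probe differed by 0.26 at day 2 and 0.40 at day 5. The day 5 call in KO mice is sensitive to the model, since 6 of 14 alternative settings put it past the threshold, with adjusted p from 0.00913 to 0.137 over all 14.

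For the 6 other members no KO comparison with control passed the threshold with the brightest probe. The KO differences at day 2 and day 5 were 0.04 and 0.26 for *Anxa3*, -0.13 and -0.05 for *Anxa4*, and -0.17 and -0.09 for *Anxa5*. They were -0.16 and 0.02 for *Anxa6*, -0.26 and -0.31 for *Anxa7*, and -0.81 and 0.11 for *Anxa8*. The precision differed between members, since the 95% CI at day 5 was -0.20 to 0.24 for *Anxa6* but -0.75 to 0.97 for *Anxa8*. In the day 2 comparison *Anxa8* passed only without KO control replicate 1, which read 4.85 against 6.51 to 6.83 in the other KO controls (-1.26, adjusted p = 0.0367). Without the library labelled KO control replicate 4, *Anxa2* gave 0.15 and 0.23 at the 2 days (adjusted p = 0.454 and 0.223), *Anxa8* gave -0.60 and 0.32 (0.474 and 0.768), and none of the other 5 passed.

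Some members were measured by more than 1 probe, and these did not always move alike. The dimmer *Anxa3* probe was not well above background in any of the 24 samples, and the dimmest of 3 *Anxa4* probes was well above it in 8. The middle *Anxa4* probe gave KO differences of -0.24 at day 2 and -0.26 at day 5 (adjusted p = 0.58 and 0.576). The dimmer *Anxa6* probe read 6.76, 7.01, 6.84 and 7.13 in KO controls, 6.62, 6.65, 6.42 and 6.73 at KO day 2, and 6.75, 7.03, 6.96 and 7.22 at KO day 5. Its day 2 samples lay below all controls (difference -0.33, adjusted p = 0.0984) and below all day 5 samples (day 5 minus day 2 of 0.39, adjusted p = 0.208), and neither difference passed. Of all genes, by their brightest probe, 7.45% and 3.19% were set apart in these ways.

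For *Anxa7*, which encodes the annexin also called synexin, the probe A_52_P534355 at chr14:21290387-21290446 (mm9) read 7.98, 8.39, 8.05 and 8.33 in WT controls and 8.59, 9.05, 9.45 and 8.65 at WT day 2, a difference of 0.75 with no overlap. Of all genes 7.21% were higher there without overlap. The other *Anxa7* probes differed by -0.14 and -0.15 there. In KO mice the same probe differed by 0.36 at day 2 (adjusted p = 0.383) against -0.26 and -0.33 for the others. The array annotation assigns all 3 to *Anxa7*, and which transcripts each one reads was not tested.

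In all, 2 of 10 members rose and 0 fell in KO mice at day 2, where 5.51% of all genes rose and 6.36% fell. At day 5, 2 of 10 rose and 1 fell, against 6.12% and 6.62% of all genes. Between day 5 and day 2, 1 of 10 was higher and 0 lower, against 0.766% and 0.23%. *Anxa10*, whose rise in WT mice chose the family, is among the higher members in each of these counts. Nothing about the family as a whole is read from them. The members' median differences were -0.10 at day 2 and 0.06 at day 5, and those of all genes -0.01 and -0.03. *Anxa10* and *Anxa1* lay far from the median of the family at both days, and the other 8 members lay within 1 unit of 0.

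Counts of groups that did not overlap can be given for both genotypes. In KO mice 2 of 10 members were higher and 0 lower at day 2 without overlap, as were 6.82% and 7.45% of all genes. At KO day 5, 3 were higher (*Anxa1*, *Anxa2* and *Anxa10*) and 1 lower (*Anxa11*), against 9.17% and 11% of all genes, and between KO day 5 and day 2, 2 were higher and 1 lower, against 3.19% and 2.45%. In WT mice 2 were higher and 0 lower at day 2, against 7.21% and 9.66%, and 4 were higher and 1 lower at day 5, against 8.98% and 11.1%. The fourth WT member at day 5, beside *Anxa1*, *Anxa2* and *Anxa10*, was *Anxa6*, with a difference of 0.17. Between WT day 5 and day 2, 2 were higher and 0 lower, against 3.61% and 2.61%. Nothing is read from the WT counts, since *Anxa10* was picked on them, and *Anxa10* is also among the higher members in each KO count.

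**Figure D3:**
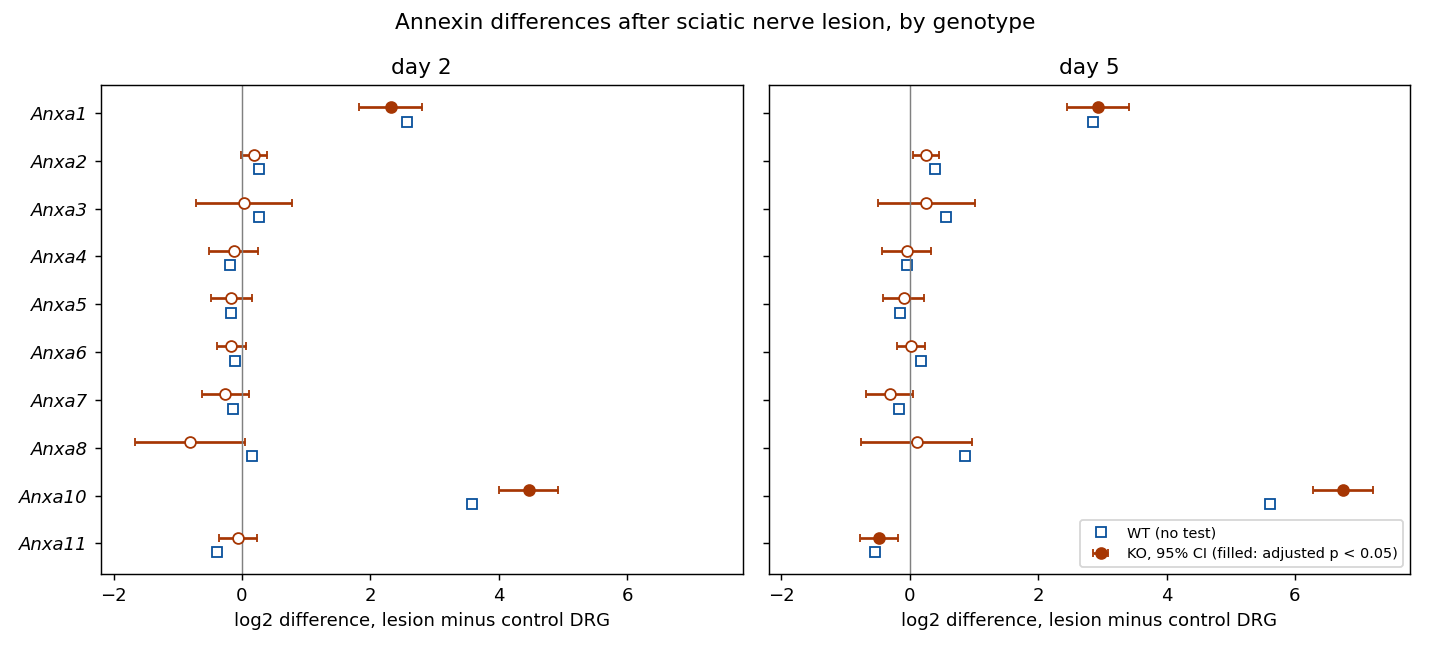
Log2 difference between lesion and control DRGs (x axis) for 10 annexin genes (y axis) at day 2 and day 5, with KO values as circles with 95% CI, filled where the adjusted p passed 0.05, and WT values as open squares with no test. *Anxa10* and *Anxa1* stand apart at both days and *Anxa11* is below 0 at day 5, while the other KO intervals include 0 or, for *Anxa2* at day 5, begin at 0.06.

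Between genotypes no member passed the adjusted limma test at any time. The deleted *Nfil3* itself did not pass in controls, where its brightest probe differed by -4.02 (limma adjusted p = 0.9999). It passed at day 2 (-5.88, adjusted p = 0.01) and day 5 (-6.52, 0.00209). The absence of a call therefore does not show that the genotypes are alike. In control DRGs 0 of 10 passed, against 0% of all genes in either direction, at day 2 0 of 10 against 0.00365% in either direction, and at day 5 0 of 10 against 0.00365% higher and 0.0073% lower in KO. The unadjusted p was under 0.05 for 1 member in controls and for 0 at each day after the lesion, against 1.69%, 3.9% and 2.37% of all genes. For *Anxa10* the KO minus WT difference was -0.12 at day 2 (95% CI -0.59 to 0.34) and 0.14 at day 5 (-0.33 to 0.60). The WT values of *Anxa10* chose the family, so its differences between genotypes are given as a description. For *Anxa1* it was -0.23 in controls (-0.71 to 0.26), -0.48 at day 2 (-0.97 to 0.00) and -0.15 at day 5 (-0.63 to 0.34). Groups without overlap were found for 1 of 10 members in controls, *Anxa10*, which was lower in KO, and for 0 at day 2 and at day 5. Of all genes 0.586% were higher and 0.582% lower in KO without overlap in controls, 0.909% and 0.712% at day 2, and 1.38% and 1.11% at day 5.

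The member with an unadjusted p under 0.05 in controls was *Anxa10*, which read 2.54 to 3.40 in KO and 3.51 to 4.42 in WT, or 2.87 to 3.40 in KO without the library labelled KO control replicate 4. The probe was well above background in none of these 8 samples and no fold is given. The interaction of time and genotype, by the limma F test, passed for 0 of 10 members and 0% of all genes. The deleted *Nfil3* did not pass it either (limma adjusted p = 0.99998 for its brightest probe). The paper, which used a SAM time course beside limma, reports a small set of genes whose lesion response differed in KO mice. SAM was not run here. The unadjusted p of the interaction was under the threshold for 1 member, again *Anxa10*, and for 2.31% of all genes, with the same member and 2.16% without that library. Neither p nor a size is given for *Anxa10*, and nothing is read from its place in the control or interaction count. Its WT values chose the family and its control values were not well above background.

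**Figure D4:**
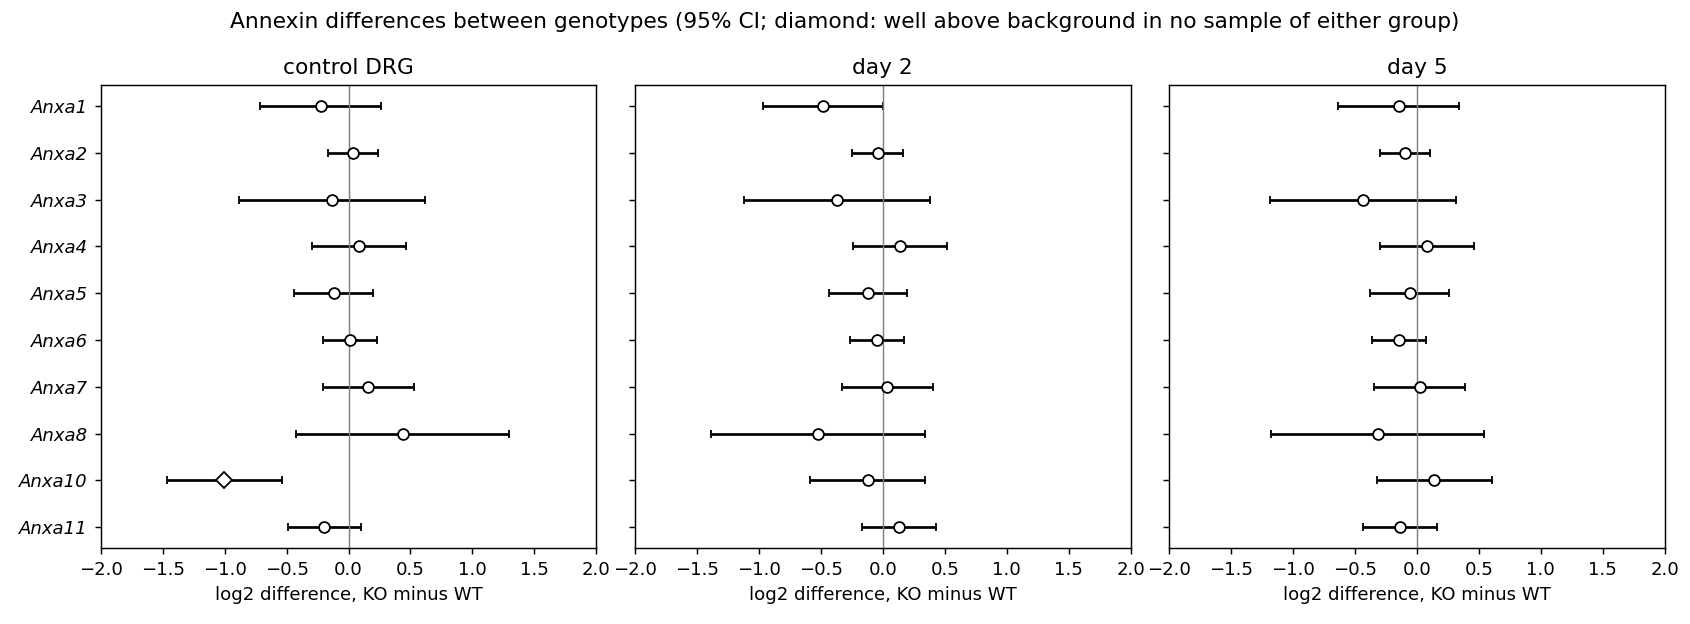
Log2 difference between KO and WT (x axis) with 95% CI for 10 annexin genes (y axis) in control DRGs and at day 2 and day 5. The intervals include 0 except for *Anxa10* in control DRGs (diamond), where the probe was not well above background in either group.

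Genes of annexin partners were counted from a list of 21, of which 19 were measured. In KO mice 6 rose at day 2 and 1 fell, and 7 rose at day 5 and 1 fell, with 6 higher at both days. Of all genes 5.51% rose and 6.36% fell at day 2, and 6.12% and 6.62% at day 5. Without the library labelled KO control replicate 4, 6 partners rose and 1 fell at each day, and *Plat* at day 2 (0.51, adjusted p = 0.0763) and *Fpr1* at day 5 (1.11, adjusted p = 0.0523) no longer passed, while *Sri*, the gene of sorcin, passed at day 2. The median differences with all samples were 0.37 and 0.43. Of the S100 proteins, *S100a10*, the ligand of ANXA2, differed by 0.57 at day 2 (adjusted p = 5.46e-04) and 0.86 at day 5 (2.92e-06). *S100a11*, the ligand of ANXA1, differed by 1.44 (4.36e-05) and 1.87 (1.00e-06). *S100a6* and *S100a4* did not pass, with 0.14 and 0.37 at day 2 and -0.30 and 0.17 at day 5.

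Genes of the plasminogen activation system, which acts at the ANXA2 and S100A10 complex, were also among those higher at both days. The urokinase receptor *Plaur* differed by 2.79 at day 2 (adjusted p = 2.37e-08) and 2.27 at day 5 (2.76e-07). The activators *Plat* and *Plau* differed by 0.50 and 0.56 at day 2 (adjusted p = 0.0447 and 0.0468) and by 0.76 and 0.71 at day 5 (0.00228 and 0.0103). *Plg*, plasminogen itself, was well above background in 7 of 24 samples and did not pass. For *Plaur* the value was larger at day 2 than at day 5, a difference that was not tested.

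Of the formyl peptide receptors, which bind ANXA1, *Fpr1* was higher at day 5 (1.08, adjusted p = 0.0306) but did not pass at day 2 (0.47, 0.414), and *Fpr2* gave 0.39 and 1.21 with no call (0.712 and 0.142). The glucocorticoid receptor gene *Nr3c1* fell at day 2 (-0.47, adjusted p = 0.0416) and gave -0.30 at day 5 (0.227). *Tsc22d3*, a glucocorticoid target like *Anxa1*, fell at day 5 (-0.55, adjusted p = 0.00891) and gave -0.35 at day 2 (0.101). The receptors are also leukocyte genes, and the macrophage sums given above rose at the same day. The part of macrophages in the *Fpr1* value was not tested.

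The array also holds 2 annexin genes outside the list of 10. *Anxa9* did not pass, with -0.07 and 0.01. *Anxa13*, known from gut epithelium, read 3.31, 4.11, 3.61 and 2.71 in KO controls, all not well above background, and 4.44, 4.48, 4.61 and 5.33 at KO day 5, all well above it. It was at least 2.22-fold higher there (log2 difference 1.28, adjusted p = 0.0348), but the call was lost without the library labelled KO control replicate 4, its lowest control (1.04, adjusted p = 0.122). The interaction of time and genotype did not pass for it (limma adjusted p = 0.99998). The WT day 5 samples at 4.62, 5.29, 4.57 and 3.39 were well above background in 2 of 4 and overlapped with WT control. Its other probe stood above background in 1 sample.

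The members differed widely in how much samples of the same group varied. The pooled SD within groups was 0.609 for *Anxa8* and 0.53 for *Anxa3*, at percentile 97.97 and 97.08 of 14484 genes detected in all samples. It was 0.119 for *Anxa2*, at percentile 11.53, and 0.185 for the median gene. *Anxa3* read 9.49, 10.53, 10.60 and 9.28 at WT day 2 and 10.18, 8.66, 9.20 and 10.37 at KO day 2. *Anxa8* read 4.85, 6.61, 6.51 and 6.83 in KO controls.

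The deviation of each sample from its group mean was set against the same deviation of the summed level of 9 cell type marker lists, 90 relations in all, of which 8 passed. The share of all genes with such relations is not given, so they are not read as particular to the annexins. *Anxa3* went with the myelinating Schwann cell list (Pearson r = 0.914, Spearman rho = 0.904, 24 samples, permutation p = 1e-05 and 4e-05, Pearson p adjusted over 90 relations 9e-04), where 1e-05 is the smallest p these permutations within groups can give. The permutations treated samples as independent, although each array held 2 and the correlation within arrays, with array in the model, was 0.267. The permutation p-values may therefore be too small. *Anxa3* also went with the fibroblast list (r = 0.875, rho = 0.87, permutation p = 8e-05 and 1.9e-04, adjusted 0.0027). Without the 2 samples farthest from the median of the list, r was 0.904 and 0.823. Within the 3 slides, of 8 samples each, r was 0.866, 0.926 and 0.966 for the myelin list and 0.568, 0.974 and 0.842 for the fibroblast list. The deviations of the myelin and fibroblast lists had the same sign in most samples. Relations of a member to both lists, here and below, are therefore not separate results.

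*Anxa1* and *Anxa8* were related to the same lists, with smaller r. For *Anxa1* and the myelin list r was 0.676 and rho 0.734 (permutation p = 9e-05 and 1.2e-04, adjusted 0.0027), and for the fibroblast list r was 0.649 and rho 0.695 (permutation p = 1.9e-04 and 6.9e-04, adjusted 0.00428). For *Anxa8* they were 0.679 and 0.68 with the myelin list (permutation p = 0.00127 and 0.00143, adjusted 0.0217) and 0.59 and 0.693 with the fibroblast list (permutation p = 0.00334 and 0.00121, adjusted 0.0376). *Anxa8* ran against the sensory neuron list (r = -0.715, rho = -0.688, permutation p = 0.00145 and 0.00144, adjusted 0.0217), and *Anxa7* ran with it (r = 0.676, rho = 0.726, permutation p = 0.00193 and 7.9e-04, adjusted 0.0248). Without the 2 farthest samples these 6 values of r were 0.689, 0.642, 0.644, 0.595, -0.632 and 0.668. Within slides the relation to the fibroblast list was uneven, at 0.832, 0.716 and 0.164 for *Anxa1* and 0.136, 0.857 and 0.552 for *Anxa8*, whereas the myelin list gave 0.532 to 0.683 and 0.622 to 0.684.

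*Anxa10* showed no such relation, with r from -0.185 to 0.229 over the 9 lists and adjusted p of 0.691 or more. The myelin and fibroblast markers themselves passed in 0 of 6 and 0 of 5 cases in either KO lesion comparison. The myelin sums ran from 66980 to 109000 in KO control and from 81390 to 106600 at KO day 5. The fibroblast sums overlapped only narrowly, with 45600 to 60490 in KO control and 59360 to 72220 at KO day 5.

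**Figure D5:**
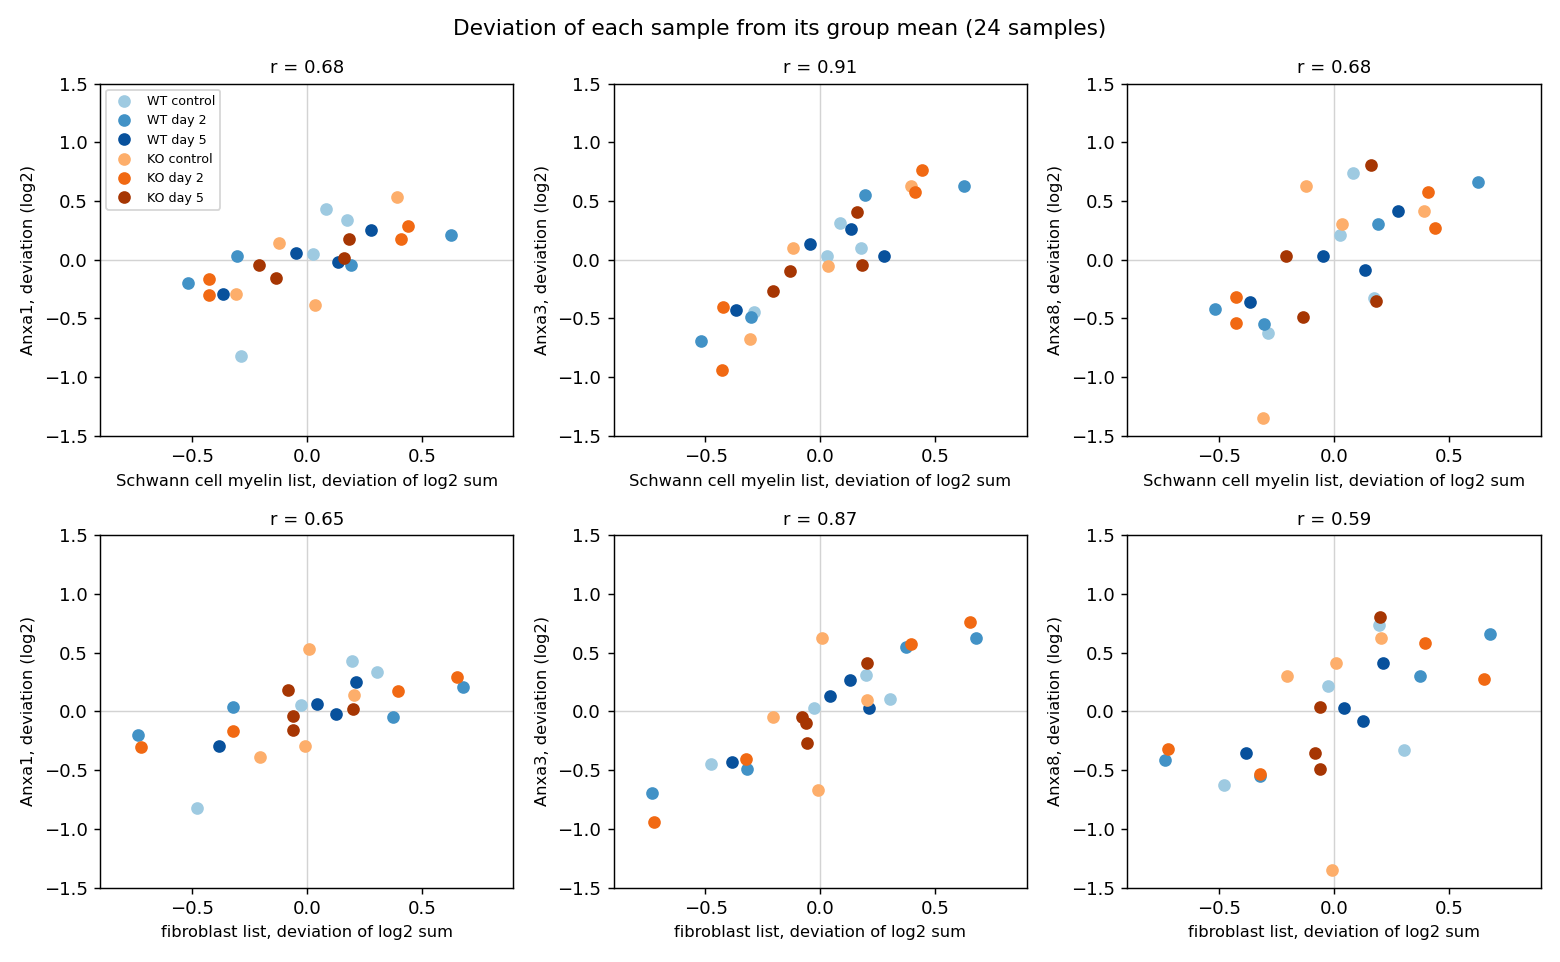
Deviation of each of 24 samples from its group mean, for *Anxa1*, *Anxa3* and *Anxa8* (y axis, log2) against the summed level of the myelinating Schwann cell list (top row) or the fibroblast list (bottom row, x axis, log2), colored by group, with Pearson's r above each panel. *Anxa3* follows the myelin list most closely (r = 0.914), and samples of all 6 groups lie along the same line.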

How the data were processed

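RNA of DRGs was hybridized to 12 Agilent arrays on 3 slides. The authors deposited Feature Extraction output (version 10.7.3.1, mm9), which holds an unnormalized foreground and background intensity for each spot and channel, with other columns for flags. From these deposited intensities, and as in the study's methods, background was corrected (Edwards, mean foreground and median background) and the 24 channels were quantile normalized. Control spots and outlier spots were left out (417 probe values missing), values were put on a log2 scale, and spots of a probe were averaged. Tests used limma 3.58.1 in R 4.3.3 with statmod 1.5.0 and version 1.17.8 of the data.table package, with 1 mean per group over all 24 samples. P-values were adjusted by Benjamini-Hochberg across the 41174 probes, and those under 0.05 passed. A gene is given by its probe with the highest mean, and shares of all genes are counted the same way. A probe was well above background where most of its spots carried that flag. Samples were grouped by title.

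The members, the marker and partner lists and the named genes were chosen with earlier results of these data known. Named are all 10 members, *Anxa9*, *Anxa13*, *Nfil3*, partners that passed in KO mice at both times (1 of them is in the counts but is not reported here) and the 5 genes nearest to *Anxa10*, while other partners and markers were named after their values were seen. The precision is limited by 4 samples per group. On simulated data with 200 of 40895 probes changed, the KO day 5 comparison recovered 14%, 47% and 82.5% of log2 changes of 0.5, 1 and 2, with 2, 6 and 7 of the unchanged probes called. In the data 4817 probes passed in that comparison, and the simulated errors were independent between samples. The recovered shares therefore hold for the simulated setting and not for the real comparison. Alternatives were other background corrections, the deposited processed signals, median foreground, loess with Aquantile, outlier spots kept, a filter on dim probes, probes averaged, dye, slide, array, array partner or replicate number in the model, an intensity trend, and each sample left out.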

Additional observations from a re-analysis of the deposited data

Results flagged for a closer look

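In 4 of 60 sets of 4 samples (10 members by 6 groups) 1 sample lay far from the other 3 by Dixon's ratio, where chance gives about 1 in 20. At WT day 2 replicate 3, *Anxa2* read 13.68 against 13.92 to 13.94 in the others. The KO day 2 replicate 1 sample was low for both *Anxa5* (15.03 against 15.40 to 15.46) and *Anxa11* (8.67 against 8.95 to 8.98). In KO control replicate 1, *Anxa8* read 4.85 against 6.51 to 6.83.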

How the results depend on the processing

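Over 14 alternative settings and 24 fits that each left out 1 sample, no called difference of a member changed direction. The KO day 5 count of called members was 3. It was 4, with *Anxa2* added, with no background correction, normexp, processed signals, probes averaged or array as a random block, and 5 with slide as a block, where *Anxa2* and *Anxa7* were added. It ranged from 2 to 3 with single samples left out, as the day 2 count did. The day 2 count was also 3 with processed signals, where *Anxa2* was added (0.27, limma adjusted p = 0.045). The cause was not tested. The WT differences of *Anxa10* at day 2 and day 5 moved to 1.78 and 3.51 with no background correction, to 1.44 and 3.08 with normexp, and to 5.39 and 7.46 with processed signals scaled to the 75th percentile. With single samples left out they ran from 3.42 to 3.73 and from 5.45 to 5.75. Averaging probes turned the WT *Anxa3* differences to -0.48 and -0.28, with a probe that was at background included. Of 903 uncalled values, 19 changed sign. The deviations of samples with the same replicate number correlated from -0.115 to 0.262, with a median of 0.071. The median was -0.02 for samples of another number and group. Whether replicate numbers pair samples cannot be told from such weak correlations. With the replicate block the counts stayed at 2, 3 and 1 in the KO comparisons, and at 0 between genotypes. The signal of *Anxa10* in controls, not well above background, limits its folds.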

Other observations

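Deviations of members from their group means were compared for 45 pairs of members over 24 samples, and 6 pairs passed with p adjusted over the 45. The share of all gene pairs that would pass is not given, and the permutations again treated samples that shared an array as independent. *Anxa5* and *Anxa11* varied together (Pearson r = 0.768, Spearman rho = 0.705, permutation p = 5.8e-04 and 0.00236, adjusted 0.0087), with 0.692 when the 2 farthest samples were left out and 0.928, 0.643 and 0.601 within slides. *Anxa3* went with *Anxa8* (r = 0.759, rho = 0.764, permutation p = 3.4e-04 and 3.9e-04, adjusted 0.00765) and with *Anxa1* (r = 0.671, rho = 0.73, permutation p = 2.5e-04 and 4.6e-04, adjusted 0.00765). Without the 2 farthest samples these were 0.808 and 0.665, and within slides they ran from 0.711 to 0.838 and from 0.464 to 0.679. *Anxa2* went with *Anxa6* (r = 0.616, rho = 0.593, permutation p = 0.00402 and 0.00577, adjusted 0.0374), with 0.495 without the 2 farthest samples and 0.451 to 0.79 within slides. *Anxa4* ran against *Anxa5* (r = -0.595, rho = -0.618, permutation p = 0.00589 and 0.00619, adjusted 0.0442) and against *Anxa11* (r = -0.522, rho = -0.528, permutation p = 0.00416 and 0.0108, adjusted 0.0374). Without the 2 farthest samples these were -0.552 and -0.503, and within slides they were uneven, from -0.69 to -0.162 and from -0.783 to -0.248.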
